A study of Mus musculus with 4 samples.

Results

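Pre-mRNA splicing genes of 5 name families were followed in iRhom1 KO and Control CT26 cells. The set holds every gene symbol of the expression table that begins with Srsf, Hnrnp, Sf3a or Sf3b, Snrp or Prpf followed by the number or letter of a family member, with names ending in -ps left out. These were 56 of 21677 gene symbols: 9 SR proteins (Srsf), 18 heterogeneous nuclear ribonucleoproteins (hnRNPs), 7 subunits of the splicing factors SF3A and SF3B, 9 Snrp genes of the U1, U2 and Sm particles, and 13 pre-mRNA processing factors (Prpf). All 56 reached the level required for a test, so no member was lost to the filter on low values. Snrpert goes against the label, since the GENCODE annotation lists it on chromosome 2 as a processed pseudogene, and 55.7% of the 50-base words in its transcript also occur in other genes, Snrpe first among them. Snrpa, Snrpa1, Snrpd2, Snrpn, Srsf7, Srsf12, Hnrnpa3, Hnrnpul2, Sf3b2 and Sf3b5 were not analysed here.

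CT26 is a mouse colon carcinoma line, and bulk RNA sequencing compared 2 iRhom1 KO libraries (S18 and S20) with 2 Control libraries (S17 and S19) to ask how loss of iRhom1, an inactive member of the rhomboid protease family, changes gene expression. The iRhom1 KO cells carry a lentiviral CRISPR vector against Rhbdf1, the gene of iRhom1, that also holds puromycin resistance. They were grown from a single clone, so the knockout and the clone cannot be told apart. The cells labelled Control are called WT where the study sets out its sequencing comparison, and it names a control vector line apart from WT, so vector and selection may also differ between the groups. The sequencing panels are described as representative of independent experiments, but how these relate to the libraries of a group is not given, and p-values measure only the spread between these 4 libraries, part of which may be technical. Each value is in FPKM, the number of fragments scaled by transcript length and by library size, which lets levels be compared between genes.

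Introns are removed by the spliceosome, which assembles on each pre-mRNA from small nuclear RNAs and the proteins bound to them. Sm proteins form the ring that holds most of these RNAs, SF3A and SF3B belong to the U2 particle that recognises the branch point, and Prpf proteins act in the later-joining particles and the catalytic core. SR proteins mostly promote the use of the exons they bind, while hnRNPs coat the transcript and often repress or shift splice sites.

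The libraries differed in several ways that are given here as measured. Rhbdf1 was listed at 0.094 and 0.0584 FPKM in iRhom1 KO, against 0.538 and 0.890 FPKM in Control, but these values equal those listed for Apobec2 in 3 of 4 libraries and differ by 0.1 in S18, so they were not used as a check of the knockout. The steps between the lowest FPKM put the depth of S18, S20 and S19 at 0.930, 0.948 and 0.967 times that of S17, with read counts not known. Median log2 fold changes over the genes of a chromosome were -0.23 on chromosome 5, -0.34 on 13, -0.32 on 15 and -0.37 on 17, against -0.10 to -0.03 on the other autosomes and X. S20 lay below S18 in 65.2% of all tested genes, whereas S19 lay below S17 in 50.8%. Rows were found for 3 of 7 leukocyte markers, 3 of 5 endothelial, 4 of 6 fibroblast, 5 of 8 colon epithelial and 2 of 4 neuronal markers. The leukocyte gene Ptprc and the endothelial gene Pecam1 were at 0.0063 FPKM or less in every library. The summed leukocyte list was 2.91 and 2.25 in iRhom1 KO against 5.19 and 5.38 FPKM in Control, with Cd68 at 0.677 and 0.830 against 3.36 and 3.36 FPKM and Lyz2 overlapping between the groups. The endothelial list was 0.0490 and 0.0786 FPKM in iRhom1 KO against 3.07 and 2.93 FPKM in Control, nearly all of it Vwf. Fibroblast markers summed to 52.4 and 57.6 FPKM in iRhom1 KO and 42.5 and 39.0 FPKM in Control, most of it Col1a2 (44.7 and 49.6 against 36.3 and 33.2 FPKM). Col1a1 and Dcn were also higher in iRhom1 KO, but Pdgfra was lower, at 0.761 and 0.723 against 1.05 and 0.916 FPKM. Neuronal markers summed to 8.07 and 8.69 FPKM in iRhom1 KO against 7.33 and 6.63 FPKM in Control. There Tubb3 was higher in iRhom1 KO (6.99 and 7.50 against 5.47 and 4.89 FPKM) and Syt1 lower (1.08 and 1.18 against 1.86 and 1.74 FPKM). Colon epithelial markers summed to 38.0 and 36.8 FPKM in iRhom1 KO against 18.8 and 19.9 FPKM in Control. Within that list the keratin Krt8 was at 6.80 and 7.03 FPKM in iRhom1 KO against 0.0278 and 0 FPKM in Control, and Krt18 at 17.4 and 18.3 against 8.58 and 9.39 FPKM. The intestinal factor Cdx2 was low throughout but higher in iRhom1 KO, at 0.243 and 0.270 against 0.0290 and 0.0168 FPKM, and Vil1 was at 0.0163 FPKM or less in every library. The part of these differences in the splicing results was not tested.

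Of the 56 splicing genes, 18 were lower in iRhom1 KO cells and 0 were higher, where 21.9% of all tested genes were lower and 10.7% higher. The falls were moderate, from a log2 fold change of -0.72 for Hnrnpu, a nuclear scaffold hnRNP, to -0.27 for Prpf31, a protein of the U4/U6 particle. They took in 4 of 9 SR proteins, 7 of 18 hnRNPs, 3 of 7 SF3A and SF3B subunits, 1 of 9 Snrp genes and 3 of 13 Prpf genes. The test was limma on log2 of FPKM plus 0.5 across 10271 genes with a Benjamini-Hochberg adjusted p under 0.05, and a gene is said to have fallen or risen only where it passed. In these bulk libraries, fewer cells that express a gene and less of its RNA per cell cannot be told apart.

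The lower members made up 32.1% of the set, and a fall was also the more frequent direction among all tested genes, with 2254 lower and 1096 higher. Among the more abundant genes, those with a mean of at least 5 FPKM over the 4 libraries, 25.1% were lower. At an unadjusted p under 0.05, limma gave 24 members lower and 0 higher, where 31.3% of all tested genes were lower and 15.7% higher. The direction was shared more widely than the calls: the log2 fold change was below 0 for 49 of 56 members (87.5%) and for 61.1% of all tested genes. Both iRhom1 KO libraries lay below both Control libraries for 36 members, against 46.1% of all tested genes, and above them for Prpf40b, Snrpb2 and Snrpg, against 25.9%. Their median log2 fold change was -0.25, and that of all tested genes -0.10. When the libraries were scaled to one another by a trimmed mean, which gave 1698 lower (16.5%) and 1639 higher genes (16%), 13 members were lower and 0 higher, with a median of -0.16 against -0.01.

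**Figure D1:**
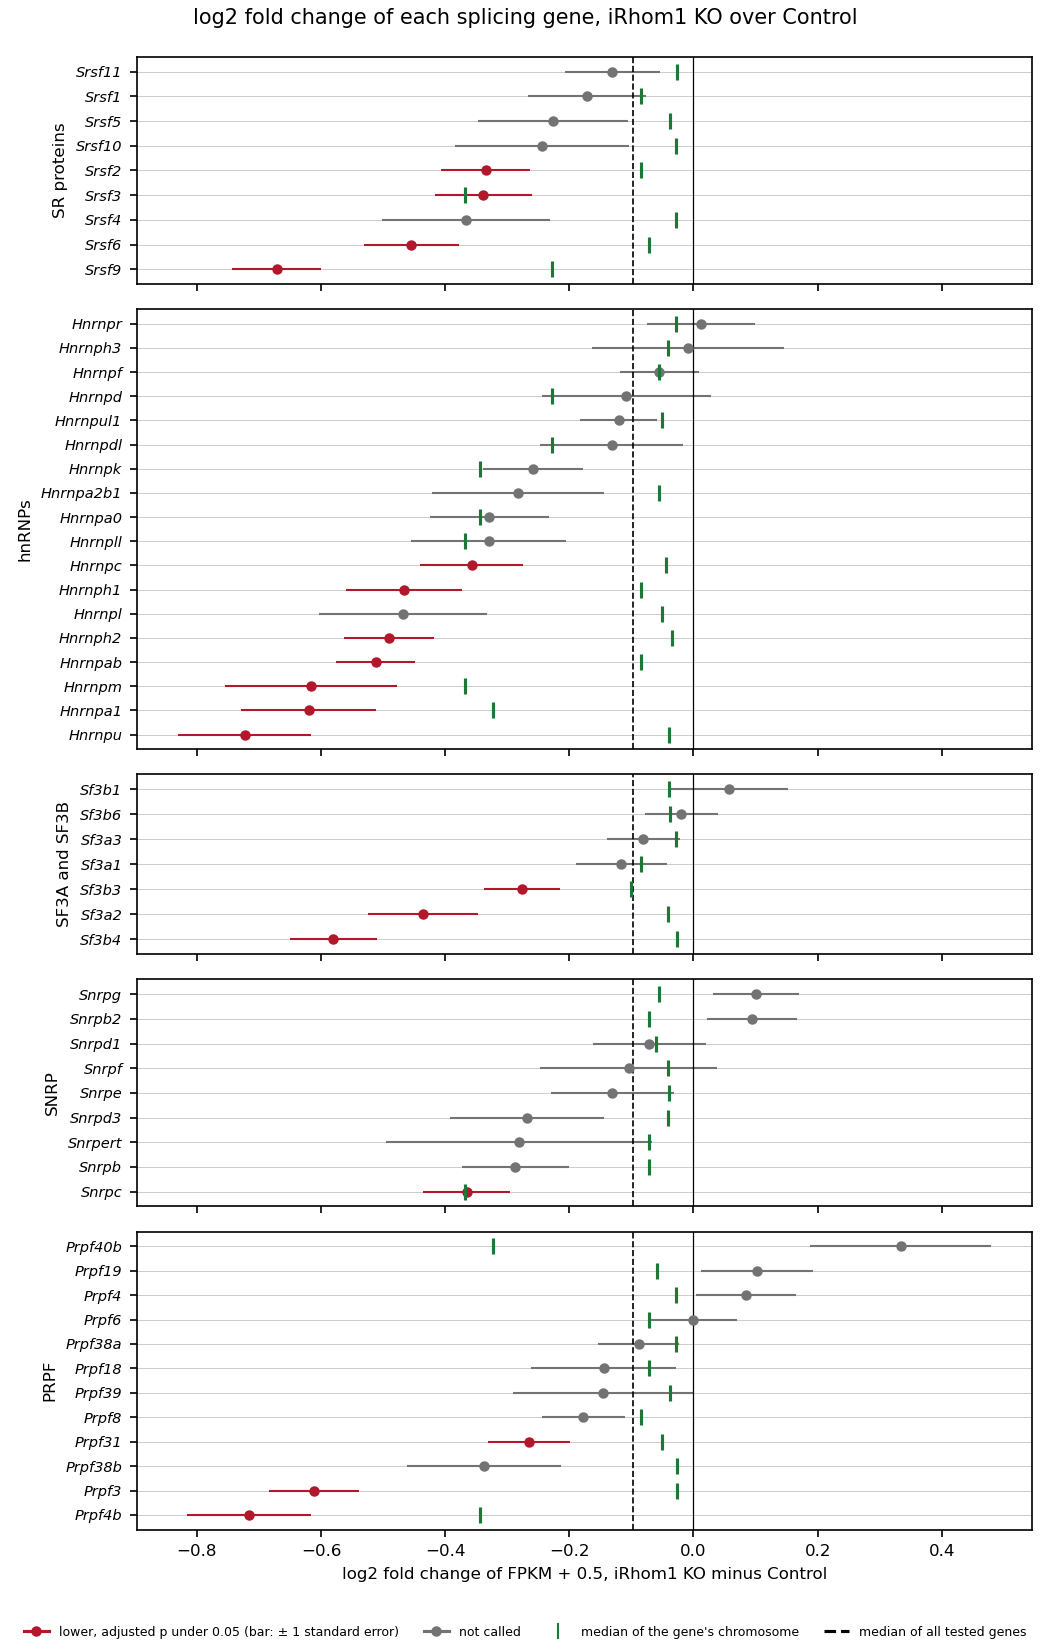
Log2 fold change of FPKM plus 0.5, iRhom1 KO minus Control, of 55 of the 56 splicing genes by family, with bars of 1 standard error from limma (2 libraries in each group), red for an adjusted p under 0.05, a green tick for the median of all tested genes on the same chromosome and a dashed line at the median of all tested genes (-0.10). The 18 red points all lie below 0, and those of Srsf3 and Snrpc lie at their chromosome's tick.

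By log2 fold change of FPKM plus 0.5, the members with the deepest falls were Hnrnpu, Prpf4b, Srsf9 and Hnrnpa1, on chromosomes 1, 13, 5 and 15. In mean FPKM the order differed, with Prpf4b at -40.5%, Hnrnpu at -39.5%, Prpf3 at -38.8% and Srsf9 at -37.8%. Hnrnpm (-35.4%) and Hnrnpa1 (-34.8%) came next. Genes of chromosomes 13, 5 and 15 were low as a whole (medians of -0.34, -0.23 and -0.32). With chromosome medians subtracted Hnrnpa1 was not called (limma adjusted p = 0.0780). The promoter windows of Hnrnpu, Prpf4b, Srsf9 and Hnrnpa1 are shown so that their sequences can be compared. Each runs 5′ to 3′ on the gene's strand from 250 bases before to 50 bases after the RefSeq start (GRCm38.p6). Capitals mark matches, on either strand, to the box CCAAT or to CGGAAG, the core of ETS factor sites, and no match overlaps another in these windows. The windows are chr1:178337766-178338065 on the minus strand for Hnrnpu, chr13:34875279-34875578 on the plus strand for Prpf4b, chr5:115326927-115327226 on the plus strand for Srsf9 and chr15:103240147-103240446 on the plus strand for Hnrnpa1.
Hnrnpu: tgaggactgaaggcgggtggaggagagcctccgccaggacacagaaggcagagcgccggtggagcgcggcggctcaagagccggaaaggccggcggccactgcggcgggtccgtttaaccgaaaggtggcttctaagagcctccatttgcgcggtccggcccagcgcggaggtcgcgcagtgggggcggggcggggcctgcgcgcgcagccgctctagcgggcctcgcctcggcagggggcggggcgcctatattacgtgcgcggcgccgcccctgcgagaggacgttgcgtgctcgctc
Prpf4b: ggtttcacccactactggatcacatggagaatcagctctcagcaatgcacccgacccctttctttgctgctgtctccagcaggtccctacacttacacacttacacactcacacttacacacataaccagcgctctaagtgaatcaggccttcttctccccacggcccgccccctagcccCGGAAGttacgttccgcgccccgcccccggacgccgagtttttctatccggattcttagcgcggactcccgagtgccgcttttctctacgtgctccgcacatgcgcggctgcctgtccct
Srsf9: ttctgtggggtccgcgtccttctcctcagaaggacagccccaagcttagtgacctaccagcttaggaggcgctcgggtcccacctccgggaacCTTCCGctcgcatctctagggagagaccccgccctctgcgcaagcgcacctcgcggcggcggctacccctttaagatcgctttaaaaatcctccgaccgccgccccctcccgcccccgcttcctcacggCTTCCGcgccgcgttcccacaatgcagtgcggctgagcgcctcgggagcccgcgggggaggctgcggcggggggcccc
Hnrnpa1: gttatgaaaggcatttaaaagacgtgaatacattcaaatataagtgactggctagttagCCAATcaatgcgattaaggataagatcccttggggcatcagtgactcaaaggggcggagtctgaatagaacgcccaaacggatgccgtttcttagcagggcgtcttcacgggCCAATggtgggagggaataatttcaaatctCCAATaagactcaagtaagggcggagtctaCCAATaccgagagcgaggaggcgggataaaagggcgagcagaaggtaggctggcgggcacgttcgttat
Neither of the marked motifs is found in all 4 windows. Hnrnpu held no match to them, Prpf4b 1 ETS core, Srsf9 2 ETS cores and Hnrnpa1 4 CCAAT boxes. Whether the windows share an element other than the motifs named here was not tested. RefSeq windows could be matched to 49 members (64 windows), 17 of them genes that fell (22 windows). They could be matched to 6977 of the 10271 tested genes (8833 windows). CCAAT stood in 50% of the windows of members that fell, in 50% of those of the other members and in 39.0% of those of the matched tested genes. CGGAAG stood in 36.4%, 57.1% and 33.3% of the same windows, and the E-box CACGTG, a palindrome, in 18.2%, 9.52% and 10.5%. These are shares of windows and not of genes, and a gene with several starts counts more than once, as Prpf3 does for the E-box. The TATA sequence TATAAA, on either strand, was found in 22.7% of the windows of members that fell and in no window of the other members. The 5 windows were those of Hnrnpab, Hnrnpm, Sf3b3, Srsf2 and Srsf3. Over all windows of members the share was 7.81%, near the 6.88% of the windows of matched tested genes. The difference between members that fell and the others was not tested. Matches are a description of the letters and not evidence of binding.

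SR proteins bind exonic enhancers through RNA recognition motifs and carry arginine and serine rich tails that are phosphorylated. All 9 were lower in both iRhom1 KO libraries than in both Control libraries, as were 46.1% of all tested genes, and 4 passed the test, where 21.9% of all tested genes were lower: Srsf9, Srsf6, Srsf3 and Srsf2. Their summed level was 206 and 188 FPKM in iRhom1 KO (S18 and S20), against 253 and 256 FPKM in Control (S17 and S19), and the median log2 fold change of the family was -0.33. Srsf9 (SRp30c, chromosome 5 of GRCm38, 115327177 to 115333080) was at 22.2 and 21.6 FPKM in iRhom1 KO, against 33.7 and 36.7 FPKM in Control. The groups were far apart beside the spread within them, with a log2 fold change of -0.67 ± 0.0717 (SE, limma's standard error) and a limma adjusted p = 0.00838. Srsf9 shared no stretch of 50 bases with an annotated transcript of another gene. Genes of chromosome 5 had a median of -0.23, and with the chromosome medians subtracted Srsf9 was still lower (-0.45, adjusted p = 0.0162). By contrast Srsf1, the founding SR protein, was at 17.9 and 18.6 FPKM in iRhom1 KO, against 19.1 and 22.2 FPKM in Control, a log2 fold change of -0.17 (± 0.095 SE) that did not pass. The ratio of Srsf9 to Srsf1 was 1.24 and 1.16 in iRhom1 KO and 1.76 and 1.65 in Control.

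Srsf6, which regulates alternative exons, was at 36.2 and 32.6 FPKM in iRhom1 KO, against 46.7 and 47.8 FPKM in Control, without overlap (log2 fold change -0.45 ± 0.0764 SE, limma adjusted p = 0.0189). It lay on chromosome 2, whose median was -0.07, and its call was lost without Control S19 (adjusted p = 0.055). Srsf2 (SC35), the protein that marks nuclear speckles, had the highest level of the family, with 49.5 and 47.3 FPKM in iRhom1 KO against 63.7 and 58.6 FPKM in Control (-0.33 ± 0.0718 SE, adjusted p = 0.0317). The call did not hold with trimmed mean scaling (limma adjusted p = 0.0606), quantile normalization (0.0631) or chromosome medians subtracted (0.0576). That call was lost whichever library was left out (adjusted p from 0.0589 without S19 to 0.148 without S17), and 20.7% of the 50-base words of Srsf2 transcripts also occur in the overlapping genes Mettl23 and Mfsd11. Srsf3, a short SR protein also known for mRNA export, was at 30.3 and 27.4 FPKM in iRhom1 KO, against 37.4 and 35.7 FPKM in Control (-0.34 ± 0.0777 SE, adjusted p = 0.0367). It lies on chromosome 17, whose tested genes had a median of -0.37, and with chromosome medians subtracted its log2 fold change was 0.05 (adjusted p = 0.635). Nor did it pass with trimmed mean scaling (limma adjusted p = 0.0520) or quantile normalization (0.0942). The Srsf3 call held without S18 (adjusted p = 0.0454) and was lost without S20, S19 or S17 (0.0823, 0.0859 and 0.139). The remaining members Srsf4, Srsf10, Srsf5 and Srsf11 had log2 fold changes of -0.37, -0.24, -0.23 and -0.13 and did not pass. Srsf4 was the least abundant SR gene, at 2.18 and 1.78 FPKM in iRhom1 KO against 2.42 and 2.97 FPKM in Control, and 39.5% of its words are shared with the gene model Gm12992.

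**Figure D2:**
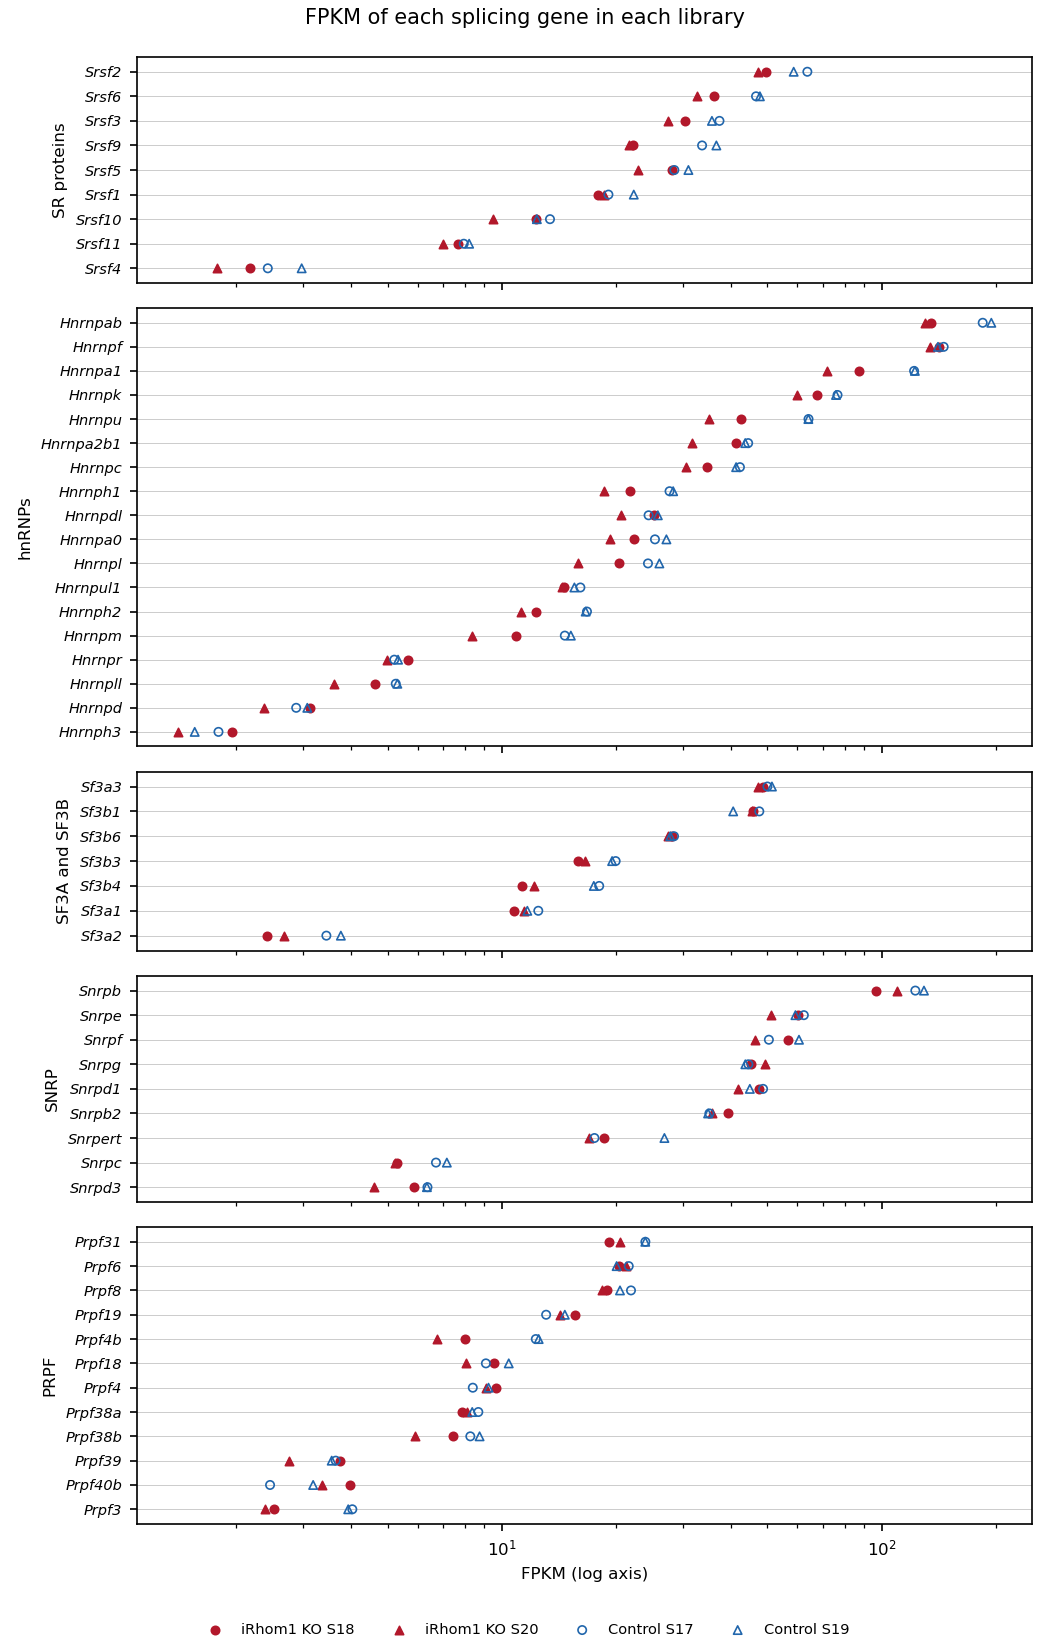
FPKM of 55 of the 56 splicing genes on a log axis in the 4 libraries, by family and in order of mean level, with filled red symbols for iRhom1 KO (circle S18, triangle S20) and open blue symbols for Control (circle S17, triangle S19). Levels run from 1.40 FPKM for Hnrnph3 in S20 to 194 FPKM for Hnrnpab in S19, and S20 was lower than S18 for 46 of all 56 genes.

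The hnRNPs were the largest family, and 7 of 18 fell (38.9%, against 21.9% of all tested genes): Hnrnpu, Hnrnpa1, Hnrnpm, Hnrnpab, Hnrnph2, Hnrnph1 and Hnrnpc. Their summed level was 692 and 614 FPKM in iRhom1 KO, against 843 and 852 FPKM in Control, and their median log2 fold change was -0.33. Hnrnpu (scaffold attachment factor A, which binds both RNA and chromatin, chromosome 1, 178321108 to 178337797) was at 42.5 and 35.1 FPKM in iRhom1 KO, against 64.2 and 64.1 FPKM in Control. Its log2 fold change of -0.72 (± 0.108 SE, limma adjusted p = 0.0148) was the most negative of the 56 genes. In mean FPKM, Prpf4b fell slightly further (-40.5% against -39.5%). The median of chromosome 1 was -0.04, and Hnrnpu was lower in both scalings and in each fit without a library (log2 fold change from -0.86 without S18 to -0.59 without S20). Its relative Hnrnpul1 was at 14.6 and 14.4 FPKM in iRhom1 KO and 16.1 and 15.5 FPKM in Control, a log2 fold change of -0.12 that did not pass.

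Hnrnpab, which binds single-stranded nucleic acid, was the most abundant of the 56 genes, with 135 and 130 FPKM in iRhom1 KO against 184 and 194 FPKM in Control. The groups did not overlap (log2 fold change -0.51 ± 0.0634 SE, limma adjusted p = 0.0103), and the call held in both scalings, with chromosome medians subtracted and in each fit without a library. The next in level, Hnrnpf, was at 141 and 134 FPKM in iRhom1 KO and 146 and 141 FPKM in Control, with a log2 fold change of -0.05 (± 0.0633 SE) that did not pass. Hnrnpf, Hnrnph1 and Hnrnph2 are close relatives that bind runs of G, yet the values differed among them. Hnrnph1 was at 21.7 and 18.6 FPKM in iRhom1 KO, against 27.6 and 28.2 FPKM in Control (-0.47 ± 0.0938 SE, adjusted p = 0.0274). Hnrnph2, on the X chromosome, was at 12.3 and 11.2 FPKM in iRhom1 KO, against 16.7 and 16.6 FPKM in Control (-0.49 ± 0.0726 SE, adjusted p = 0.0146). The Hnrnph2 call held without each library, while Hnrnph1 passed without S18 (adjusted p = 0.0367) and missed the threshold narrowly without S20, S17 or S19 (0.0513, 0.0563 and 0.0658). Words of 50 bases shared with other genes made up 61.9% of Hnrnpf, 15.9% of Hnrnph2 and 1.77% of Hnrnph1 transcripts, so the division of reads between Hnrnpf and its gene model copies is uncertain. Hnrnph3, another relative, was the least abundant of the 56 genes, at 1.95 and 1.40 FPKM in iRhom1 KO and 1.79 and 1.55 FPKM in Control, and had a log2 fold change of -0.01.

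Hnrnpa1, a repressor of many alternative exons (chromosome 15, 103240432 to 103246692), was at 87.2 and 71.9 FPKM in iRhom1 KO, against 122 and 122 FPKM in Control. Both Control libraries lay well above both iRhom1 KO libraries (log2 fold change -0.62 ± 0.108 SE, limma adjusted p = 0.0205). Hnrnpm, on chromosome 17, was at 10.9 and 8.36 FPKM in iRhom1 KO, against 14.6 and 15.2 FPKM in Control (-0.62 ± 0.139 SE, adjusted p = 0.0351). Both sit on chromosomes whose genes were low as a whole (medians of -0.32 and -0.37), and subtracting these medians ended both calls, at -0.29 (limma adjusted p = 0.0780) for Hnrnpa1 and -0.23 (adjusted p = 0.233) for Hnrnpm. Without S19 the Hnrnpm call was also lost (adjusted p = 0.0573). Shared words made up 28.2% of Hnrnpa1 transcripts, with several pseudogene-like models among the partners, and the left out Hnrnpa1l2-ps2 was at 1.57 and 1.37 FPKM in iRhom1 KO against 2.18 and 2.59 FPKM in Control. Hnrnpc, which binds U-rich tracts, was at 34.6 and 30.6 FPKM in iRhom1 KO, against 42.3 and 41.4 FPKM in Control (-0.36 ± 0.0826 SE, adjusted p = 0.0371). Hnrnpc did not pass with quantile normalization (limma adjusted p = 0.0584). Its call held without S18 (0.0404), with chromosome medians subtracted (0.0295) and with trimmed mean scaling (0.0468), and was lost without S20, S19 or S17 (0.0676, 0.0897 and 0.116).

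Of the 11 hnRNPs that did not pass, Hnrnpk, a poly(C) binding protein, was at 67.5 and 59.9 FPKM in iRhom1 KO, against 76.5 and 75.8 FPKM in Control. Its groups did not overlap, but the log2 fold change of -0.26 (± 0.0802 SE, limma adjusted p = 0.0722) was smaller in size than the median of its chromosome 13 (-0.34). Hnrnpl, which binds CA repeats, and Hnrnpll, a relative known for splicing of Ptprc in lymphocytes, had log2 fold changes of -0.47 and -0.33, Hnrnpa0 -0.33 and Hnrnpa2b1 -0.28, all without overlap between the groups. Without S18, the iRhom1 KO library with the higher values, Hnrnpk, Hnrnpl, Hnrnpll and Hnrnpa2b1 were called (adjusted p from 0.0384 to 0.0445). Hnrnpdl and Hnrnpd, the gene of the decay factor AUF1, lie on chromosome 5 and had log2 fold changes of -0.13 and -0.11, above that chromosome's median of -0.23. Hnrnpr was at 5.68 and 4.98 FPKM in iRhom1 KO and 5.21 and 5.33 FPKM in Control, and its log2 fold change of 0.01 was the 1 value above 0 in the family.

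SF3A and SF3B are the protein complexes of the U2 particle. Of their 7 measured subunits, Sf3b4, Sf3a2 and Sf3b3 fell (42.9%, against 21.9% of all tested genes) and the other 4 did not pass. Subunits of the same complex thus had unlike values. The summed level was 163 and 163 FPKM in iRhom1 KO, against 180 and 172 FPKM in Control, and the median log2 fold change was -0.12. Sf3b4 (SAP49, which contacts the pre-mRNA near the branch site, chromosome 3, 96172332 to 96177564) was at 11.3 and 12.2 FPKM in iRhom1 KO, against 18 and 17.5 FPKM in Control. The log2 fold change of -0.58 (± 0.0704 SE, limma adjusted p = 0.0100) lay far from the chromosome 3 median of -0.03 and passed under each of the 15 settings tried. Shared words made up 45.3% of Sf3b4 transcripts, with the gene model Gm7935 as the main partner, so its level is uncertain. Sf3b1, the scaffold of the complex that contacts the intron around the branch site, was at 45.9 and 45.7 FPKM in iRhom1 KO and 47.6 and 40.6 FPKM in Control. The groups overlapped, with a log2 fold change of 0.06 (± 0.0947 SE) that turned to -0.06 without S19. The ratio of Sf3b4 to Sf3b1 was 0.245 and 0.266 in iRhom1 KO and 0.379 and 0.430 in Control, and that of Sf3b4 to Sf3b6, which sits at the branch adenosine, 0.403 and 0.444 against 0.635 and 0.629.

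Sf3a2 was at 2.41 and 2.66 FPKM in iRhom1 KO, against 3.45 and 3.77 FPKM in Control, without overlap (log2 fold change -0.44 ± 0.0882 SE, limma adjusted p = 0.0278). At this low level the added 0.5 FPKM understates the change, which was -29.7% in mean FPKM. Sf3b3 had a log2 fold change of -0.28 (± 0.0616 SE, adjusted p = 0.0343). Neither call held in any fit without a library (adjusted p from 0.0572 to 0.110 for Sf3a2 and from 0.0613 to 0.182 for Sf3b3) or in either scaling. Sf3a3 and Sf3a1, the partners of Sf3a2 in the SF3A trimer, did not pass. Sf3a3, the most abundant of the 7, was at 48.6 and 47.2 FPKM in iRhom1 KO, against 50 and 51.4 FPKM in Control (-0.08 ± 0.059 SE). Sf3a1 was at 10.8 and 11.4 FPKM in iRhom1 KO, against 12.5 and 11.7 FPKM in Control (-0.12 ± 0.0731 SE). The log2 fold change of Sf3b6 was -0.02.

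Snrp genes encode proteins of the U1 and U2 particles and the Sm ring, and 1 of 9 fell (11.1%, under the 21.9% of all tested genes). Their summed level was 376 and 361 FPKM in iRhom1 KO, against 394 and 413 FPKM in Control, and the median log2 fold change was -0.13. None of the 6 Sm ring genes measured (Snrpb, Snrpd1, Snrpd3, Snrpe, Snrpf and Snrpg) passed the adjusted threshold of limma in either direction, and 1 of them, Snrpb, had an unadjusted p under 0.05. Snrpb, the most abundant Snrp gene, was at 96.8 and 110 FPKM in iRhom1 KO, against 123 and 129 FPKM in Control (log2 fold change -0.29 ± 0.0859 SE, adjusted p = 0.0671). Snrpe was at 60.2 and 51.2 FPKM in iRhom1 KO and 62.4 and 59.3 FPKM in Control, with overlapping groups (-0.13 ± 0.0995 SE). Snrpd1 also overlapped, at 47.4 and 41.8 FPKM in iRhom1 KO and 48.7 and 45.0 FPKM in Control (-0.07 ± 0.0914 SE). Sm proteins are made in the cytoplasm, where they are loaded onto the small nuclear RNAs. Snrpg was higher in both iRhom1 KO libraries, at 45.4 and 49.4 FPKM, than in Control, at 44.6 and 43.7 FPKM, but its log2 fold change of 0.10 (± 0.0697 SE) did not pass. Snrpf (-0.10) shares 89.5% of its 50-base words with other genes and Snrpert (-0.28) 55.7%, so their levels are uncertain, and Snrpert was called in the fit without S17 and no other (adjusted p = 0.0259). Snrpd3 had a log2 fold change of -0.27 and was called in the fit without S18 and no other (adjusted p = 0.0437).

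Snrpc, the U1 protein that steadies pairing of U1 with the splice site, was the Snrp gene that fell, at 5.30 and 5.24 FPKM in iRhom1 KO against 6.71 and 7.16 FPKM in Control. The log2 fold change of -0.37 (± 0.0701 SE, limma adjusted p = 0.0248) equalled the median of its chromosome 17, -0.37, and was 0.02 (adjusted p = 0.840) with chromosome medians subtracted. It was also lost whichever library was left out (adjusted p from 0.0627 without S18 to 0.134 without S19) and with quantile normalization (0.0602). Snrpb2, a U2 protein, was at 39.3 and 35.7 FPKM in iRhom1 KO against 35.2 and 34.9 FPKM in Control (0.09 ± 0.0725 SE), which did not pass.

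Prpf proteins carry out the later steps of assembly and catalysis. Of the 13 genes, 3 fell (23.1%, near the 21.9% of all tested genes): Prpf4b, Prpf3 and Prpf31. The family had the lowest summed level of the 5, at 150 and 141 FPKM in iRhom1 KO against 160 and 162 FPKM in Control and a median log2 fold change of -0.14. Prpf4b, a kinase that phosphorylates proteins of the particle joined late in assembly (chromosome 13, 34875302 to 34906064), was at 8.01 and 6.74 FPKM in iRhom1 KO, against 12.3 and 12.5 FPKM in Control. Its log2 fold change was -0.72 (± 0.0996 SE, limma adjusted p = 0.0127), and it passed under all 15 settings. The median of chromosome 13 was -0.34, and with it subtracted Prpf4b stood at -0.37 (adjusted p = 0.0295). Prpf3 (chromosome 3, 95830124 to 95855885), a protein of the U4/U6 particle, was at 2.51 and 2.37 FPKM in iRhom1 KO, against 4.04 and 3.94 FPKM in Control. The log2 fold change was -0.61 (± 0.0726 SE, adjusted p = 0.00987), and chromosome 3 had a median of -0.03. Prpf4, which binds Prpf3 directly, was at 9.66 and 9.06 FPKM in iRhom1 KO and 8.38 and 9.22 FPKM in Control, with overlapping groups (0.08 ± 0.0807 SE). The ratio of Prpf3 to Prpf4 was 0.260 and 0.262 in iRhom1 KO and 0.482 and 0.427 in Control.

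Prpf31, which also belongs to the U4/U6 particle, was at 19.1 and 20.5 FPKM in iRhom1 KO, against 23.9 and 23.9 FPKM in Control. Its log2 fold change of -0.27 (± 0.0662 SE, limma adjusted p = 0.0445) was the smallest among the 18, and it was lost in both scalings (0.156 and 0.283), with chromosome medians subtracted (0.0779) and whichever library was left out (0.0561 without S20 to 0.181 without S17). Prpf8, the protein at the centre of the catalytic core, was at 18.9 and 18.4 FPKM in iRhom1 KO, against 21.9 and 20.5 FPKM in Control (-0.18 ± 0.0671 SE, adjusted p = 0.110). Prpf19, a ubiquitin ligase of the activated spliceosome, was at 15.6 and 14.2 FPKM in iRhom1 KO and 13.1 and 14.6 FPKM in Control, with overlapping groups (0.10 ± 0.0907 SE). Neither Prpf8 nor Prpf19 passed in either direction. Prpf40b, a splicing factor with WW domains, was at 3.97 and 3.37 FPKM in iRhom1 KO, against 2.45 and 3.19 FPKM in Control, the largest positive value of the 56 genes (0.33 ± 0.146 SE, adjusted p = 0.149). It lies on chromosome 15, and with the chromosome median subtracted it was called higher, at 0.66 (adjusted p = 0.0320), the 1 member so called under any setting. Prpf38b had a log2 fold change of -0.34 and was called in the fit without S18 and no other (adjusted p = 0.0442), and Prpf39, Prpf18, Prpf38a and Prpf6, the bridge of the tri-snRNP, had values between -0.15 and 0.00.

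The 2 iRhom1 KO libraries were less alike than the 2 Control libraries in these genes. S20 was below S18 for 46 of 56 members (82.1%), against 65.2% of all tested genes, and the median log2 ratio of S20 to S18 was -0.15 for the members and -0.06 for all tested genes. S19 was below S17 for 27 members (48.2%), against 50.8% of all tested genes. The difference between the iRhom1 KO libraries was widest in the hnRNPs, where S20 was below S18 in 18 of 18 genes with a median of -0.25, and was 0.05 in SF3A and SF3B. The count of lower members was 19 without S18 (16.7% of all tested genes were lower in that fit), 10 without S20 (10.6%), 11 without S17 (13.3%) and 8 without S19 (12.5%). In each of these fits a group is left with 1 library, which is assumed to vary like the other group. Without S20 the median log2 fold change of the members was -0.16, against -0.07 for all tested genes.

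**Figure D3:**
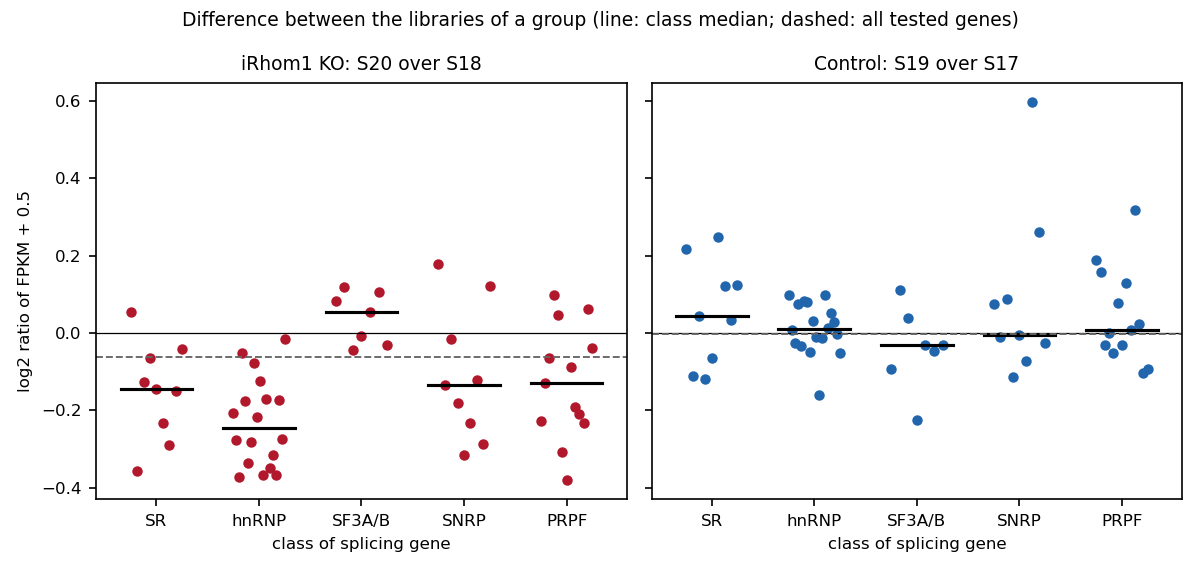
Log2 ratio of FPKM plus 0.5 between the libraries of a group for each splicing gene, by family, in iRhom1 KO (S20 over S18, red) and in Control (S19 over S17, blue), with black lines at family medians and a dashed line at the median of all tested genes. The 18 hnRNPs all lie below 0 in iRhom1 KO, with a median of -0.25, and around 0 in Control, with a median of 0.01.

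Calls can be sorted by how many settings they survived. Srsf9, Sf3b4 and Prpf4b passed under all 15 alternatives. Hnrnpab, Hnrnph1, Hnrnph2, Hnrnpu, Prpf3, Prpf4b, Sf3b4, Srsf6 and Srsf9 were lower in both scalings and with chromosome medians subtracted, and 7 of these 9 also in each fit without a library, Hnrnph1 and Srsf6 being the exceptions. Of the 18 members that fell, 6 lie on chromosomes 5, 13, 15 and 17 (Hnrnpa1, Hnrnpm, Prpf4b, Snrpc, Srsf3 and Srsf9) and 12 elsewhere. Words shared with other genes made up 23.8% of Hnrnpab (Phykpl first among the partners), 16.1% of Prpf31 (Gm15927), 15.9% of Sf3a2 (Plekhj1) and 13.5% of Hnrnpm transcripts (March2), and whether the quantification used strand is not given in the sources used here. The 12 members on these 4 chromosomes had a median log2 fold change of -0.33, and all tested genes there -0.31, with 6 of 12 lower (50%) against 41.3% of those genes. The 44 members on the other chromosomes had a median of -0.17, and all tested genes there -0.05, with 12 of 44 lower (27.3%) against 17.1% of those genes. With chromosome medians subtracted, 11 members were lower and 1 higher, against 13.7% and 15% of all tested genes. Quantile normalization left 11 lower members (15.1% of all tested genes) and a fit without a filter on low values, which adjusts over more genes, 10 (7.3%). Asking for a change of at least 1.2-fold (limma's treat test) left 4 members, Prpf3, Prpf4b, Sf3b4 and Srsf9, and 6.28% of all tested genes.

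**Figure D4:**
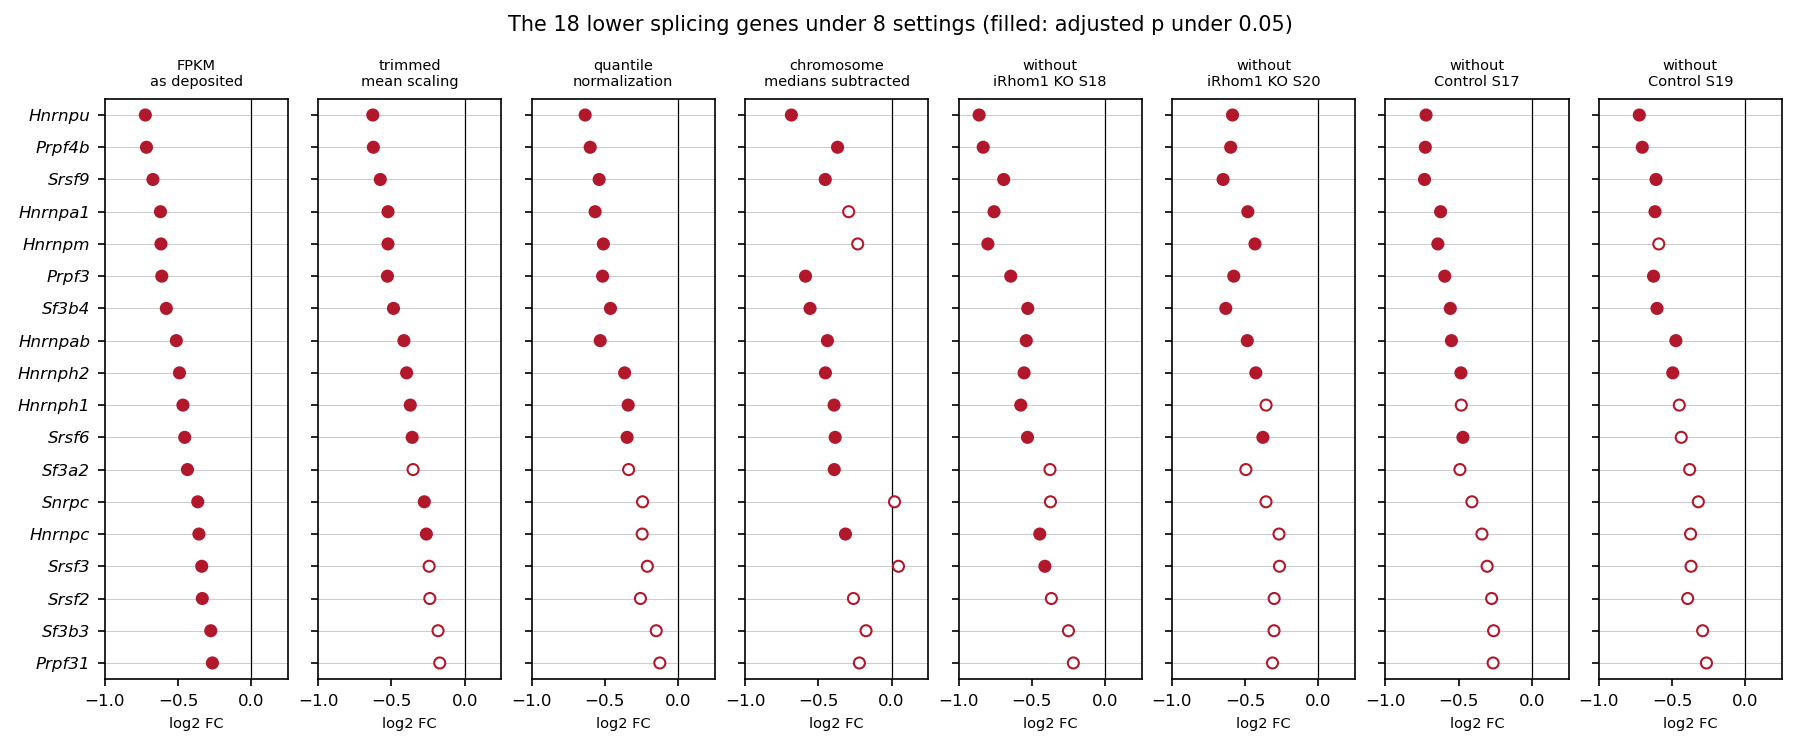
Log2 fold change, iRhom1 KO minus Control, of the 18 splicing genes that fell, under the test on FPKM as deposited and 7 alternatives, filled where the adjusted p was under 0.05. With chromosome medians subtracted, Snrpc (0.02) and Srsf3 (0.05) lie at 0 or above, and Hnrnpu stays at -0.68.

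Other splicing genes were also more often called lower than higher. Of a list of 118 such genes, which the family names do not match, rows were found for 100, and 98 were tested. Of these 98 genes, 30 were lower and 4 higher (30.6% lower, against 21.9% of all tested genes). Their median log2 fold change was -0.21. The log2 fold change was below 0 for 74 of the 98 (75.5%, against 61.1% of all tested genes). Among U2 auxiliary factors and RNA helicases 7 of 13 were lower, led by Ddx23 (-0.79), a helicase of the U5 particle, Puf60 (-0.66), a relative of U2AF, and the helicase Ddx46 (-0.62). In the assembly machinery 7 of 16 were lower, among them Sart3 (-0.78), which recycles U4 and U6, Smn1 (-0.65), the gene product of which loads Sm rings, and its partner Strap (-0.35). Smn1 was at 1.09 and 0.879 FPKM in iRhom1 KO, against 1.64 and 2.03 FPKM in Control. Of SR-related genes and SR kinases 5 of 13 were lower, with Srpk1 (-0.81), the kinase of SR protein tails, Tra2a (-0.50) and Acin1 (-0.49), while the kinase gene Clk3 was higher (0.33). Srpk1 stood at 7.20 and 6.47 FPKM in iRhom1 KO, against 13.7 and 11.1 FPKM in Control.

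The group of Prp19-associated and catalytic step proteins had 4 of 14 genes lower (28.6%, against 21.9% of all tested genes), with Slu7 (-0.53), Cdc5l (-0.52) and Syf2 (-0.39) ahead. Among proteins named Snrnp and Lsm 3 of 14 were lower (21.4%, near the 21.9% of all tested genes), Lsm2 (-0.74) and Lsm6 (-0.66) of the ring on U6 RNA and Eftud2 (-0.60), the GTPase of the U5 particle. Among other regulators 3 of 22 were lower (13.6%, under that share), and Pcbp1, a poly(C) binding protein, had the deepest fall of the whole list, with 11.3 and 10.5 FPKM in iRhom1 KO against 21.2 and 21.1 FPKM in Control (-0.93 ± 0.0684 SE, limma adjusted p = 0.00534). Ptbp2 (-0.40) and Qk (-0.33) fell as well. Among the 4 genes that rose, Ptbp3, a polypyrimidine tract binding protein, was at 20 and 20.3 FPKM in iRhom1 KO, against 13.8 and 13.1 FPKM in Control (0.56 ± 0.0635 SE, adjusted p = 0.00932), and Mbnl2, a muscleblind protein, had a log2 fold change of 0.37. In the exon junction complex, which marks spliced exon junctions, Magohb was higher (0.39) and Upf3b lower (-0.58), out of 6 tested genes. Several of the deepest falls lie on chromosomes 5, 13, 15 and 17, among them Ddx23, Puf60, Ddx46, Srpk1, Lsm2, Sart3 and Smn1, whereas Pcbp1 lies on chromosome 6. Subtracting chromosome medians ended the calls of Srpk1, Ddx46, Smn1, Cdc5l and Qk (limma adjusted p = 0.0662, 0.183, 0.119, 0.132 and 0.582), and Qk and Ptbp2 were not called with trimmed mean scaling (0.0551 and 0.0584). With chromosome medians subtracted 19 of the list were lower and 5 higher, where 13.7% and 15% of all tested genes were. Without S18 28 of the list were lower (16.7% of all tested genes), without S20 14 (10.6%), without S17 18 (13.3%) and without S19 14 (12.5%).

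**Figure D5:**
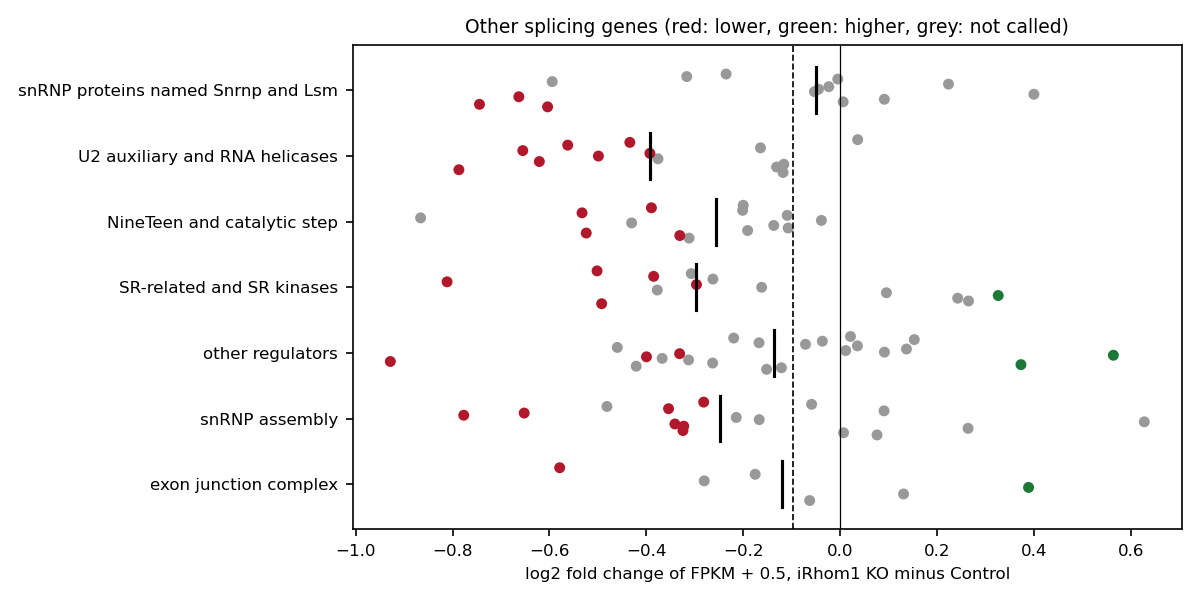
Log2 fold change of FPKM plus 0.5, iRhom1 KO minus Control, of 98 other splicing genes in 7 groups, red where lower and green where higher at an adjusted p under 0.05, with a black line at each group's median and a dashed line at the median of all tested genes (-0.10). The 30 red points are spread over all 7 groups, and the 4 green points fall in the SR-related, other regulator and exon junction groups.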

How the data were processed

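Bulk RNA of CT26 cells was sequenced in 2 iRhom1 KO and 2 Control libraries. The FPKM were deposited as the authors made them, by alignment with HISAT2 to GRCm38 and quantification with StringTie. Tool versions and the annotation are not given in the sources used here, and no further scaling between libraries is stated. The authors' 2 columns of fold change and its log2 were not used. Columns carry library tags, so their groups were taken from column names. Of 21724 rows, 19 without a gene symbol were left out, and 54 rows of 26 shared symbols were summed, leaving 21677 symbols. Prpf39 sums 2 rows. No row with a gene symbol was at 0 in both libraries of a group, and the reason is not given in the sources used here.

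The fit took 10271 genes whose mean reached 1 FPKM in either group, on log2 of FPKM plus 0.5. It used limma 3.58.1 (R 4.3.3) with a variance trend and no robust step. On this log2 scale a fold change understates that of low genes. Before the fit, the script had been run on simulated data with a spread common to all genes. Those data held no shift between libraries or chromosomes, so the run cannot tell how such shifts affect the calls. Benjamini-Hochberg adjustment covered all genes tested, at 0.05. An exact permutation test of 2 against 2 libraries cannot go below a two-sided p of 0.333, so it was not used. The members and lists were chosen with earlier results of these data known. Values in every library are given for the 12 called members with the largest change, the 2 most abundant members of each family and a set of core members, and for the other genes named a fold change or range. A member that enters all counts and medians is not reported here by itself. Of the other splicing genes, up to 3 called genes of each group and direction are named. Smn1, Srpk1, Pcbp1 and Ptbp3 were given library values after their values were seen, as were the levels of Srsf4, Hnrnph3, Hnrnpul1, Hnrnpr, Prpf4, Prpf40b, Snrpb2, Snrpc and Snrpg and all ratios. Chromosomes and shared 50-base words came from GENCODE M21, and promoter windows from RefSeq. Chromosome medians were subtracted per library as deviations from the gene mean. Trimmed mean scaling left out 30% of log ratios and 5% of levels. Other alternatives were pseudocounts of 0.1 and 1, no filter and a limit of 5 FPKM, quantile normalization, robust fitting, no trend, a minimum fold change of 1.2, the highest row in place of the sum for shared symbols, and leaving out each library.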

Additional observations from a re-analysis of the deposited data

How the results depend on the processing

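The FPKM carry no read counts, so counting error could not be given, and with 2 libraries in each group a call rests on few values. No paired analysis was possible because the value columns carry library tags that could not be matched to the replicate numbers of the labels. The 18 lower members were kept with pseudocounts of 0.1 and 1, robust fitting and the highest row of a shared symbol. The number of lower members was 10 without a filter on low values, 11 with quantile normalization, 11 with chromosome medians subtracted, 4 with a minimum fold change of 1.2, and 8 to 19 when each library was left out. The number of higher members was 0 in each of these but 1 with chromosome medians subtracted. Their median log2 fold change of -0.25 became -0.16 with trimmed mean scaling, -0.13 with quantile normalization, -0.10 with chromosome medians subtracted, and lay between -0.31 and -0.16 without a library. That of all tested genes, -0.10, became -0.012, -0.0028 and -0.0020 under these 3 alternatives and lay between -0.13 and -0.066 without a library, and that of the other splicing genes, -0.21, became -0.12, -0.10 and -0.11 and lay between -0.26 and -0.19. Of all tested genes, 1403 were lower with chromosome medians subtracted, 645 with the minimum fold change and 1096 to 1713 without a library, and 727 were higher with a mean of at least 5 FPKM, 298 with the minimum fold change and 561 to 745 without a library. Of the other splicing genes, 18 were lower and 2 higher without a filter, 19 lower with chromosome medians subtracted, 7 lower and 1 higher with the minimum fold change, 8 higher with trimmed mean scaling, 7 higher with quantile normalization, and 14 to 28 lower and 1 to 3 higher without a library. The minimum fold change asks more of a gene by construction, and without a filter more genes were adjusted over. For the others the cause was not tested.

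The log2 fold change turned sign for 20 of 55 members in 39 cases, and Snrpc and Srsf3 were the called genes among them. With chromosome medians subtracted it was 0.020 for Snrpc, 0.047 for Srsf3, 0.018 for Hnrnpa0, 0.11 for Hnrnpd, 0.087 for Hnrnpdl, 0.0017 for Hnrnpf, 0.036 for Hnrnph3, 0.088 for Hnrnpk, 0.055 for Hnrnpll, 0.068 for Prpf6 and 0.022 for Sf3b6. With trimmed mean scaling it was 0.042 for Hnrnpf, 0.065 for Hnrnph3, 0.0029 for Prpf38a, 0.093 for Prpf6, 0.015 for Sf3a3, 0.075 for Sf3b6 and 0.025 for Snrpd1. With quantile normalization it was 0.063 for Hnrnph3, 0.010 for Prpf38a, 0.14 for Prpf6, 0.0025 for Sf3a1, 0.011 for Sf3a3, 0.11 for Sf3b6 and 0.036 for Snrpd1. Over the fits without a library it ran from -0.28 to 0.059 for Hnrnpd, -0.27 to 0.0095 for Hnrnpdl, -0.19 to 0.17 for Hnrnph3, -0.075 to 0.098 for Hnrnpr, -0.34 to 0.045 for Prpf39, -0.053 to 0.051 for Prpf6, -0.055 to 0.17 for Sf3b1, -0.16 to 0.020 for Snrpd1, -0.58 to 0.018 for Snrpert and -0.25 to 0.039 for Snrpf.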
